A study of Rattus norvegicus with 9 samples.

Results

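The response of cultured rat heart muscle cells to joint knockdown of Llgl1 and Llgl2 was described by setting 3 RNA-seq libraries of cells given siRNA against both genes (Llgl1/2 siRNA) against 3 libraries of cells given universal negative control siRNA (control siRNA). These are 6 of the 9 libraries of the series. The remaining 3 libraries, from cells given siRNA against Yap (Yap siRNA), were used for the shared estimate of the spread and for a direct comparison with Llgl1/2 siRNA. The comparison covered the 10789 of 14636 genes that reached 1 FPKM in 3 or more of the 9 libraries, where FPKM is the number of fragments scaled to transcript length and to the fragments mapped in the library. All cells were primary cardiac myocytes of Sprague Dawley rats aged 2 days, obtained with a heart dissociation kit and a Percoll gradient and kept in DMEM with 15% serum. Transfection began after 16 h with 2 siRNAs per target, each at 25 nM, and cells were collected 48 h later. Since 2 genes were targeted in the Llgl1/2 group, target and total siRNA load cannot be told apart. The labels do not say whether the 3 libraries of a group came from separate cultures, so p-values measure the spread between libraries, which may be technical.

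Llgl1 and Llgl2 encode mammalian relatives of lethal giant larvae, a scaffold protein of the basolateral cell cortex first known from the fly. In fly epithelia it works with Scribble and Discs large, is released from the cortex when atypical protein kinase C phosphorylates it, and limits tissue growth. Lgl proteins bind non-muscle myosin II and the syntaxins that drive fusion of vesicles with the plasma membrane, and in dividing cells they take part in orienting the spindle. Yap is the transcriptional coactivator restrained by the Hippo kinases, a pathway linked to cell polarity.

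Per library, 10449 to 10565 genes reached 1 FPKM in these 6 libraries, and FPKM sums ran from 572884 to 597481. The table holds no read totals, so absolute depth is unknown. Across genes, which are not independent replicates, Pearson's r of log2 levels was 0.992 to 0.994 within a group and 0.968 to 0.979 between groups. The first principal component of the 6 libraries held 71.9% of the variance and separated the groups. On that component control library 3 lay nearer to the Llgl1/2 libraries than the other controls did, and on the next one Llgl1/2 library 1 lay apart from the other 2.

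Both siRNA targets were lower in every Llgl1/2 library than in any control library. Llgl1 had 4.76, 4.65 and 4.75 FPKM after Llgl1/2 siRNA, against 12.1, 11.9 and 12.4 FPKM after control siRNA (log2 change -1.20 ± 0.11, adjusted p = 3.9e-06, limma with Benjamini-Hochberg adjustment over all tested genes, as for every adjusted p here; errors of log2 changes are standard errors). Llgl2 had 6.51, 7.33 and 7.62 FPKM after Llgl1/2 siRNA, against 13.9, 12.04 and 14.9 FPKM after control siRNA (log2 change -0.84 ± 0.13, adjusted p = 2.5e-04). Llgl1 therefore stood at a ratio of means of 0.389 to the control and Llgl2 at 0.525. Both were also lower than after Yap siRNA. There Llgl1 had 9.5, 7.14 and 9.88 FPKM (log2 difference -0.77 ± 0.11, adjusted p = 1.0e-04). Llgl2 had 8.11, 8.69 and 12.01 FPKM (log2 difference -0.36 ± 0.13, adjusted p = 0.036). Yap siRNA, which is aimed at neither gene, also gave lower levels than control siRNA. The log2 change after Yap siRNA was -0.43 ± 0.11 for Llgl1 (adjusted p = 0.0064) and -0.48 ± 0.13 for Llgl2 (adjusted p = 0.0086). How much of each fall after Llgl1/2 siRNA comes from the siRNA against that gene was not tested.

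**Figure D1:**
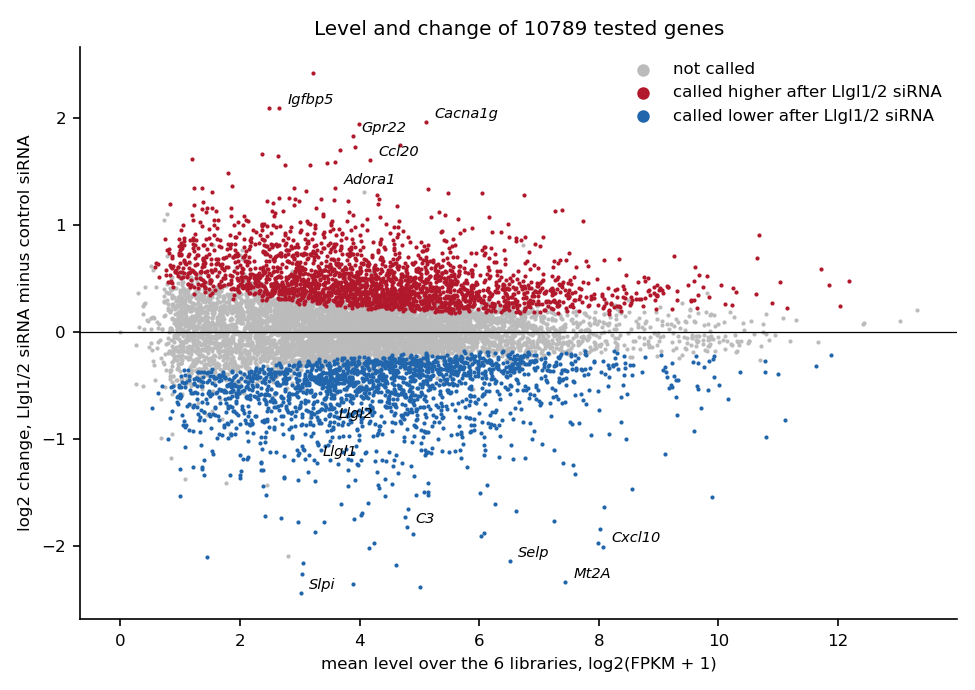
Each point is 1 of the 10789 tested genes, with its mean level over the 6 libraries on the x axis, as log2(FPKM + 1), and its log2 change after Llgl1/2 siRNA relative to control siRNA on the y axis. Red and blue points passed the adjusted p of 0.05 (2380 higher, 1958 lower), grey points did not, and the falls reach further than most rises, down to -2.44 for Slpi.

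At an adjusted p of 0.05, 4338 genes (40.2% of those tested) differed between the groups, 2380 higher (22.1%) and 1958 lower (18.1%) after Llgl1/2 siRNA. The changes were mostly small: the median size of a called change was 0.46 on the log2 scale, and 57.5% of the calls were under 0.5. A rise of at least 1 on the log2 scale was called for 95 genes (0.881%) and a fall of that size for 165 genes (1.53%). Groups did not overlap in 3251 genes that were higher (30.1%) and 2584 that were lower (24.0%). Calls were more frequent at higher levels, with 32.8% of genes under 5 FPKM called and 48.3% of those over 100 FPKM. The median change over all tested genes was 0.03. These shares are the background against which the gene groups below are to be read. The lists were chosen with earlier results of these data known, so their counts are description only. Members of the gene lists were named mostly by smallest p, so that their groups lie apart was largely fixed by the choice. A log2 change is on the log2(FPKM + 1) scale, which understates the change of genes with low levels.

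Cardiomyocyte genes were abundant in both groups. Actc1, cardiac actin, had 9664, 8389 and 8022 FPKM after Llgl1/2 siRNA, against 7705, 8017 and 8451 FPKM after control siRNA (log2 change 0.11 ± 0.10, adjusted p = 0.41). Tnnt2, cardiac troponin T, had 5735, 5786 and 5486 FPKM after Llgl1/2 siRNA, against 5068, 5145 and 5903 FPKM after control siRNA (log2 change 0.08 ± 0.09, adjusted p = 0.48). For both genes the groups overlapped. Of 15 tested cardiomyocyte markers 10 rose and 1 fell (median 0.41), beside 22.1% of all tested genes higher and 18.1% lower. Among those that rose was Myl2, the ventricular regulatory myosin light chain, with 6133, 5104 and 5045 FPKM after Llgl1/2 siRNA, against 3647, 3559.9 and 4477 FPKM after control siRNA (log2 change 0.48 ± 0.10, adjusted p = 0.0020).

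RNA of other heart cells was present in every library, and it moved with the groups. Endothelial markers fell in 13 of 15 tested members (median -0.98, beside 18.1% of all tested genes lower), and none rose. Eng, the TGF-beta coreceptor endoglin, had 113, 108 and 109 FPKM after Llgl1/2 siRNA, against 294, 295 and 247 FPKM after control siRNA (log2 change -1.33 ± 0.10, adjusted p = 6.5e-07). Cdh5, VE-cadherin of endothelial junctions, had 42.1, 42.1 and 42.8 FPKM after Llgl1/2 siRNA, against 90.2, 103 and 84.8 FPKM after control siRNA (log2 change -1.11 ± 0.09, adjusted p = 1.1e-06). Pecam1, an endothelial adhesion molecule, had 45.5, 43.7 and 43.1 FPKM after Llgl1/2 siRNA, against 93.5, 95.1 and 77.1 FPKM after control siRNA (log2 change -0.98 ± 0.10, adjusted p = 6.1e-06). In all 3 genes every Llgl1/2 library lay below every control library. The 16 endothelial markers in the table summed to 315 to 335 FPKM after Llgl1/2 siRNA, against 631 to 743 FPKM after control siRNA, and none of the markers was at 0 in all 6 libraries. In bulk RNA, fewer cells of a type and less RNA per cell cannot be told apart.

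The other marker lists moved less or in mixed directions. Their counts stand beside 22.1% of all tested genes higher and 18.1% lower. The 12 fibroblast markers summed to 320 to 406 FPKM after Llgl1/2 siRNA and 349 to 506 FPKM after control siRNA, and 4 of 11 tested members fell and 1 rose (7 fell without control library 3, 2 without control library 2). The 15 macrophage and leukocyte markers summed to 188 to 255 FPKM after Llgl1/2 siRNA and 235 to 309 FPKM after control siRNA. Of the 14 tested, 5 fell and none rose, and the count of falls was 2 to 3 when any of Llgl1/2 libraries 2 and 3 and control libraries 1 and 2 was left out. Both of these sums overlapped between the groups. Summed smooth muscle and pericyte markers did not overlap, at 2437 to 2910 FPKM after Llgl1/2 siRNA and 3699 to 3815 FPKM after control siRNA. This lower sum was carried by Acta2, while the median log2 change of the tested members was 0.29. Acta2, smooth muscle actin and the most abundant of them, had 1294, 1099.7 and 1179 FPKM after Llgl1/2 siRNA, against 2361, 2249 and 2449 FPKM after control siRNA (log2 change -0.98 ± 0.08, adjusted p = 1.2e-06). In that list 5 of 12 tested members rose, such as Des, the intermediate filament desmin (log2 change 0.29 ± 0.08, adjusted p = 0.0087), and 2 fell. The share that fell was near that of all tested genes. Beside Acta2, Tagln, the actin-binding transgelin, fell (log2 change -0.42 ± 0.12, adjusted p = 0.013). The call of Tagln was lost without Llgl1/2 library 2 and control library 1 (adjusted p = 0.052 to 0.069).

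The 8 epicardial and mesothelial markers summed to 46.5 to 58.1 FPKM after Llgl1/2 siRNA and 28.1 to 37.0 FPKM after control siRNA. Of the 7 tested, 3 rose and none fell (median 0.05, and 5e-04 without control library 1), beside 22.1% of all tested genes higher. Without the keratins Krt8 and Krt18, left out after their values were seen, the sums were 13.2 to 18.5 FPKM after Llgl1/2 siRNA and 12.9 to 20.8 FPKM after control siRNA, which overlap. Krt18 had 29.1, 26.5 and 28.8 FPKM after Llgl1/2 siRNA, against 13.4, 13.5 and 13.4 FPKM after control siRNA (log2 change 1.01 ± 0.18, adjusted p = 5.8e-04). Krt8, its partner, had 10.5, 6.29 and 10.3 FPKM after Llgl1/2 siRNA, against 2.59, 2.7 and 1.8 FPKM after control siRNA (log2 change 1.56 ± 0.19, adjusted p = 3.0e-05). Every Llgl1/2 library was above every control library for both keratins. The third member that rose was Tbx18, an epicardial transcription factor (log2 change 0.61 ± 0.14, adjusted p = 0.0034). The 4 tested erythroid markers did not change by the test, and their sums overlapped (124 to 167 FPKM after Llgl1/2 siRNA, 140 to 169 FPKM after control siRNA). Of the 2 tested neural and Schwann cell markers, 1 rose and none fell. All 7 of these markers, tested or not, summed to 5.98 to 8.03 FPKM after Llgl1/2 siRNA and 3.65 to 5.0 FPKM after control siRNA. These sums did not overlap, but most of the 7 markers were too low to test.

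**Figure D2:**
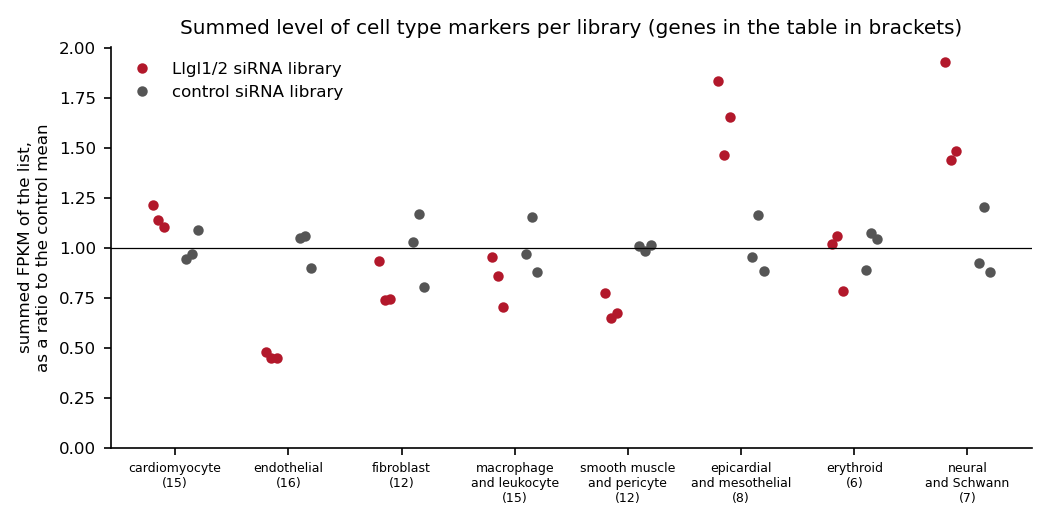
The y axis gives the summed FPKM of each cell type marker list in 1 library as a ratio to the mean of the 3 control libraries, with Llgl1/2 libraries in red at the left and control libraries in grey at the right of each list. Endothelial sums of 315 to 335 FPKM after Llgl1/2 siRNA lie clear of the control sums of 631 to 743 FPKM, while fibroblast, leukocyte and erythroid sums overlap.

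The 15 steepest rises (adjusted p up to 0.029) and the 15 steepest falls were taken from called genes with a mean of at least 5 FPKM in either group and no overlap between the groups, so that their groups lie apart was fixed by the choice. Cacna1g, the pore-forming subunit of a T-type calcium channel, had 51.99, 55.3 and 54.1 FPKM after Llgl1/2 siRNA, against 12.1, 13.9 and 13.3 FPKM after control siRNA (log2 change 1.96 ± 0.10, adjusted p = 2.7e-08). Gpr22, an orphan G protein-coupled receptor, had 17.9, 23.2 and 25.8 FPKM after Llgl1/2 siRNA, against 5.76, 4.97 and 5.8 FPKM after control siRNA (log2 change 1.83 ± 0.12, adjusted p = 2.4e-07). Sphkap, an anchoring protein for protein kinase A, had 21.3, 25.1 and 25.9 FPKM after Llgl1/2 siRNA, against 4.79, 5.2 and 6.7 FPKM after control siRNA (log2 change 1.94 ± 0.13, adjusted p = 2.3e-07). These 3 rises lay close together in size. Efnb3, the transmembrane ligand ephrin-B3, had 38.9, 38.8 and 37.6 FPKM after Llgl1/2 siRNA, against 10.2, 9.45 and 12.8 FPKM after control siRNA (log2 change 1.75 ± 0.10, adjusted p = 6.0e-08). Ppp1r1a, an inhibitor of protein phosphatase 1 that acts in adrenergic signalling, had 17.5, 17.2 and 16.04 FPKM after Llgl1/2 siRNA, against 4.85, 4.03 and 6.18 FPKM after control siRNA (log2 change 1.59 ± 0.12, adjusted p = 7.2e-07). Ccl20, a chemokine that attracts cells bearing CCR6, had 28.02, 26.8 and 23.8 FPKM after Llgl1/2 siRNA, against 8.42, 8.74 and 6.75 FPKM after control siRNA (log2 change 1.60 ± 0.20, adjusted p = 6.4e-05). It was 1 chemokine among the 15 rises, whereas 5 chemokines were among the 15 falls.

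Igfbp5, a secreted binding protein of insulin-like growth factors, had 4.77, 10.98 and 12.1 FPKM after Llgl1/2 siRNA, against 0.54, 1.63 and 1.89 FPKM after control siRNA (log2 change 2.09 ± 0.33, adjusted p = 0.0013), so it rose although 1 Llgl1/2 library was well below the other 2. Tp53inp1, a stress protein induced by p53, had 19.3, 24.1 and 23.7 FPKM after Llgl1/2 siRNA, against 4.74, 6.53 and 7.04 FPKM after control siRNA (log2 change 1.73 ± 0.14, adjusted p = 1.1e-06). Cygb, the oxygen-binding protein cytoglobin, had 7.46, 7.13 and 5.99 FPKM after Llgl1/2 siRNA, against 1.18, 2.06 and 1.28 FPKM after control siRNA (log2 change 1.66 ± 0.15, adjusted p = 2.6e-06). The other rises were Rph3al, a Rab effector of regulated secretion (1.64), Tmem171, a transmembrane protein (1.56), Cryl1, a crystallin-related dehydrogenase of sugar acids (1.58), and LOC688553, an uncharacterized protein (1.70). A pair of short microRNA precursor rows completed them. Mir1896 had 8.0, 18.9 and 16.1 FPKM after Llgl1/2 siRNA, against 4.83, 0 and 2.41 FPKM after control siRNA (log2 change 2.42 ± 0.68, adjusted p = 0.029). Mir3074 had 7.37, 5.96 and 10.4 FPKM after Llgl1/2 siRNA, against 2.67, 1.34 and 0 FPKM after control siRNA (log2 change 2.09 ± 0.47, adjusted p = 0.010). For such short rows a few reads make a large FPKM and reads of an overlapping transcript cannot be separated, so both are uncertain. The call of Mir1896 was lost without Llgl1/2 libraries 2 and 3 and control library 3 (adjusted p = 0.052 to 0.090), with the replicate block (adjusted p = 0.052), with only the 6 libraries compared (adjusted p = 0.067) and with a pseudocount of 0.1 (adjusted p = 0.092). With that pseudocount the call of Mir3074 was lost too (adjusted p = 0.066).

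The 15 steepest falls (adjusted p up to 0.0020) held 5 chemokines and 2 colony-stimulating factors beside genes of other kinds. Slpi, a secreted inhibitor of leukocyte proteases, had 1.88, 1.52 and 1.13 FPKM after Llgl1/2 siRNA, against 10.8, 15.1 and 12.1 FPKM after control siRNA (log2 change -2.44 ± 0.14, adjusted p = 6.6e-08). Mt2A, a metal-binding metallothionein, had 60.7, 49.4 and 57.2 FPKM after Llgl1/2 siRNA, against 308, 319.7 and 235 FPKM after control siRNA (log2 change -2.34 ± 0.11, adjusted p = 2.7e-08). Cxcl10, a chemokine induced by interferon, had 108, 120.2 and 91.8 FPKM after Llgl1/2 siRNA, against 440.2, 446 and 400.2 FPKM after control siRNA (log2 change -2.01 ± 0.11, adjusted p = 6.6e-08). Cxcl10 had the highest level of these 3 genes in the control libraries. Cxcl1, a chemokine for neutrophils, had 107, 95.8 and 98.5 FPKM after Llgl1/2 siRNA, against 468, 444 and 299 FPKM after control siRNA (log2 change -1.97 ± 0.14, adjusted p = 9.6e-07). The related Cxcl6 had 10.99, 6.73 and 10.02 FPKM after Llgl1/2 siRNA, against 51.9, 69.4 and 37.6 FPKM after control siRNA (log2 change -2.38 ± 0.22, adjusted p = 2.9e-05). Cxcl3 had 12.3, 11.3 and 11.4 FPKM after Llgl1/2 siRNA, against 49.4, 46.8 and 41.6 FPKM after control siRNA (log2 change -1.89 ± 0.09, adjusted p = 2.7e-08). Neutrophil chemokines thus stood at ratios of means of 0.249, 0.174 and 0.254 to the control for Cxcl1, Cxcl6 and Cxcl3.

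A pair of colony-stimulating factors fell as well. Csf3, which drives granulocyte production, had 2.73, 1.43 and 1.32 FPKM after Llgl1/2 siRNA, against 13.4, 15.1 and 9.03 FPKM after control siRNA (log2 change -2.26 ± 0.28, adjusted p = 1.5e-04). Csf2, which acts on granulocytes and macrophages, had 6.16, 4.45 and 7.66 FPKM after Llgl1/2 siRNA, against 31.1, 28.1 and 23.1 FPKM after control siRNA (log2 change -2.02 ± 0.15, adjusted p = 6.9e-07). Nos2, the inducible nitric oxide synthase, had 2.09, 2.27 and 1.74 FPKM after Llgl1/2 siRNA, against 12.5, 13.6 and 11.5 FPKM after control siRNA (log2 change -2.16 ± 0.12, adjusted p = 6.0e-08). The noncoding row LOC106736471, which the authors' annotation matches to inducible nitric oxide synthase, had 2.88, 5.15 and 3.56 FPKM after Llgl1/2 siRNA, against 24.1, 27.6 and 19.4 FPKM after control siRNA (log2 change -2.36 ± 0.19, adjusted p = 2.0e-06), and reads may be shared between these 2 rows. Selp, P-selectin of activated endothelium and platelets, had 35.8, 31.4 and 30.99 FPKM after Llgl1/2 siRNA, against 165, 155 and 125 FPKM after control siRNA (log2 change -2.14 ± 0.10, adjusted p = 2.7e-08). Gbp5, an interferon-induced GTPase, had 24.4, 33.4 and 26.5 FPKM after Llgl1/2 siRNA, against 109, 107 and 100.3 FPKM after control siRNA (log2 change -1.88 ± 0.11, adjusted p = 6.6e-08). Angptl4, a secreted inhibitor of lipoprotein lipase, had 7.7, 7.84 and 7.79 FPKM after Llgl1/2 siRNA, against 43.3, 41.9 and 31.7 FPKM after control siRNA (log2 change -2.17 ± 0.12, adjusted p = 5.9e-08). The remaining falls were Ccl12, a monocyte chemokine (log2 change -1.91 ± 0.30, adjusted p = 0.0020), and Igfbp3, a binding protein of insulin-like growth factors (log2 change -1.97 ± 0.23, adjusted p = 1.2e-04), opposite in direction to Igfbp5. Endothelial marker sums moved with these genes, and their part in the falls was not tested.

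**Figure D3:**
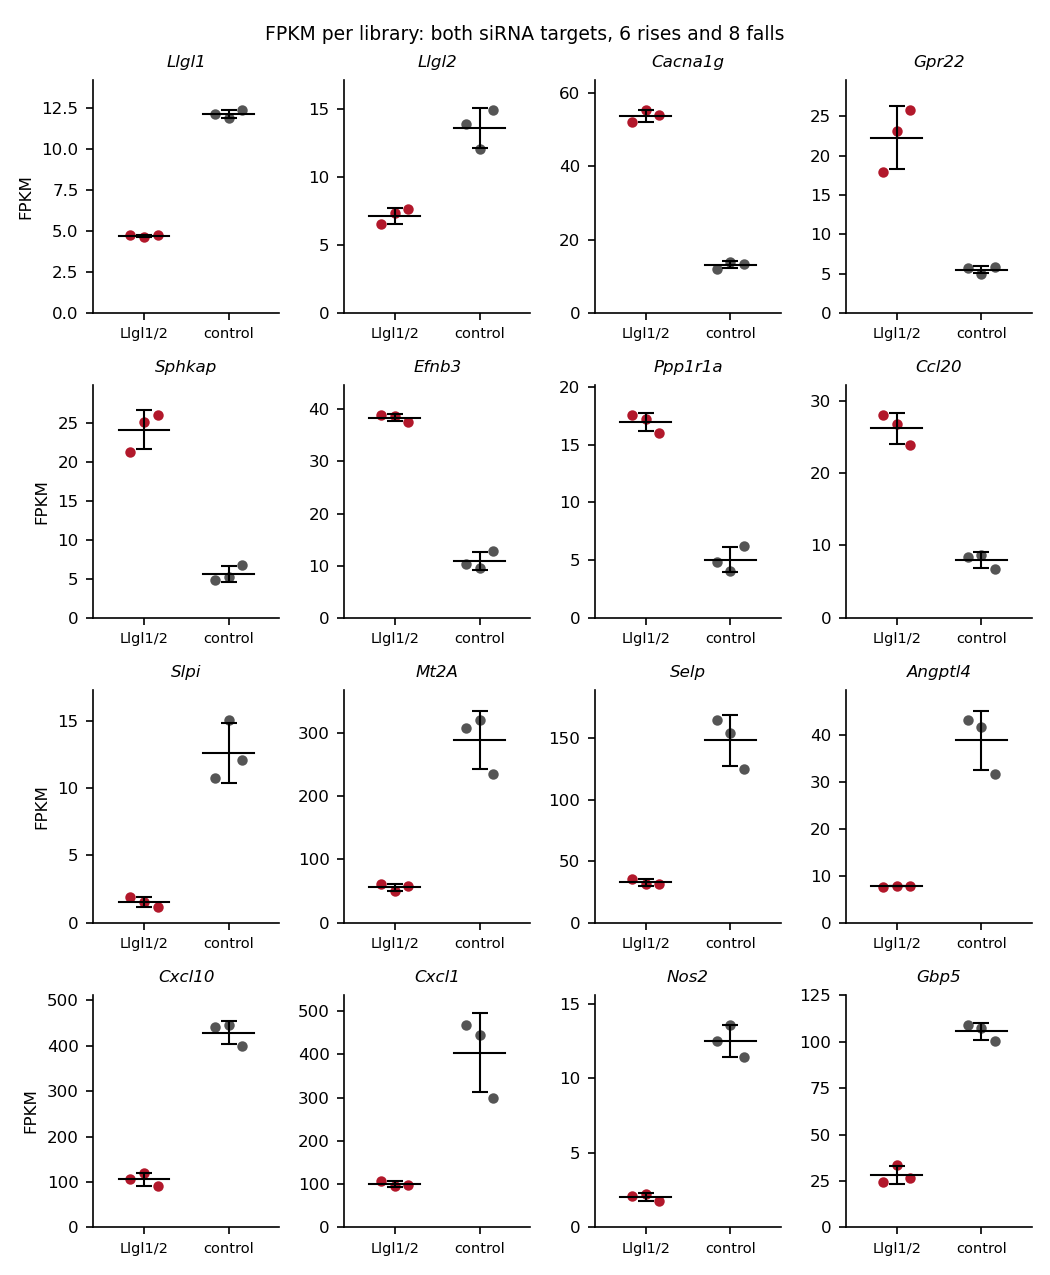
FPKM (y axis, from 0) in each library of the Llgl1/2 group (red, left) and the control group (grey, right) for both targets, 6 of the steepest rises and 8 of the steepest falls. Bars are the mean and SD of 3 libraries, and the rises and falls shown were chosen for groups that do not overlap, for example 91.8 to 120.2 FPKM after Llgl1/2 siRNA against 400.2 to 446 FPKM after control siRNA for Cxcl10.

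All 15 falls were also lower after Llgl1/2 siRNA than after Yap siRNA. Cxcl1 had 299, 283 and 245 FPKM after Yap siRNA (log2 difference -1.44 ± 0.14, adjusted p = 6.4e-06). Gbp5 had 77.05, 71.9 and 61.3 FPKM there (log2 difference -1.29 ± 0.11, adjusted p = 8.9e-07). Among the 15 rises, 5 were higher than after Yap siRNA, 5 were lower and 5 did not pass the test. Ccl20 had 6.15, 2.72 and 2.9 FPKM after Yap siRNA (log2 difference 2.53 ± 0.20, adjusted p = 1.3e-06). Cacna1g had 34.1, 35.6 and 44.3 FPKM (log2 difference 0.50 ± 0.10, adjusted p = 8.5e-04). Igfbp5 was higher after Yap siRNA, at 31.2, 39.4 and 39.4 FPKM (log2 difference -1.95 ± 0.33, adjusted p = 0.0015). Gpr22 had 21.4, 24.96 and 23.01 FPKM after Yap siRNA, and its difference did not pass the test (log2 difference -0.06 ± 0.12, adjusted p = 0.69). Both comparisons use the same Llgl1/2 libraries, by whose values the 30 genes were chosen. Over all tested genes, 3024 (28.0%) were higher and 2046 (19.0%) lower after Llgl1/2 siRNA than after Yap siRNA. Endothelial markers were lower than after Yap siRNA in 11 of 15 tested members and higher in none (median log2 difference -0.48). Fibroblast markers were lower in 4 of 11 and leukocyte markers in 4 of 14, and none were higher. The part of these cells was not tested.

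Promoter sequence is shown for falling genes of inflammation and antigen presentation that hold the best known short motifs of NF-kB and interferon signalling. The windows, from RefSeq on GRCr8, run from 250 bases before to 50 bases after each start, and 8782 of the 10789 tested genes had one. The NF-kB motif was spelled GGGNNTTTCC and the interferon-stimulated response element GAAANNGAAA, each searched on both strands; the letters GAAA are also part of the reverse complement of the first, so matches of both can overlap. Capitals mark 1 match in 60 bases of the gene's own strand, written 5′ to 3′. In the Cxcl1 line a further NF-kB match, 102 to 93 bases before the start, is left in lower case. The first 4 lines show the NF-kB motif in 2 neutrophil chemokines, in the NF-kB inhibitor Nfkbia and in Tapbp, which loads peptides onto MHC class I:
Cxcl1 (chr14:17479371-17479430, minus strand): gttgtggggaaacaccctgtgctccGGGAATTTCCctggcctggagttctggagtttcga
Cxcl6 (chr14:17596471-17596530, minus strand): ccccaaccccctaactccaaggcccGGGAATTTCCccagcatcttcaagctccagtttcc
Nfkbia (chr6:78597073-78597132, minus strand): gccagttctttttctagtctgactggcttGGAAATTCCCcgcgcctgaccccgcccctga
Tapbp (chr20:4967904-4967963, minus strand): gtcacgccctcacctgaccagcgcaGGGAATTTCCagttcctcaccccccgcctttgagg
The next 5 lines show the interferon motif in the chemokine Cxcl10, the GTPase Gbp5, the transcription factor Irf7, the RNA sensor relative Oasl2 and the immunoproteasome subunit Psmb10:
Cxcl10 (chr14:15988816-15988875, plus strand): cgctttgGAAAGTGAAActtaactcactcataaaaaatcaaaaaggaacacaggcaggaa
Gbp5 (chr2:233910918-233910977, plus strand): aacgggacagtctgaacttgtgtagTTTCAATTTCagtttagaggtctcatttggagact
Irf7 (chr1:205800058-205800117, minus strand): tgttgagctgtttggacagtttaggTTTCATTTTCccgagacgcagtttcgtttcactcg
Oasl2 (chr12:47383302-47383361, minus strand): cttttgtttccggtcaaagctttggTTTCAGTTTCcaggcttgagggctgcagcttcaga
Psmb10 (chr19:50743331-50743390, minus strand): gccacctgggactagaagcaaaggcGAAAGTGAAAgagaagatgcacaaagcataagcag
The NF-kB motif occurred in 1.51% of all 27457 windows and 1.73% of those of tested genes. Among genes lower by at least 1 on the log2 scale it occurred in 7 of 123 windows (5.69%), and among genes higher by that much in 3 of 68 (4.41%). The interferon motif occurred in 3.77% of all windows, 2.93% of those of tested genes, 12 of 123 windows (9.76%) of the genes that fell that far and 1 of 68 (1.47%) of those that rose. Such a match describes letters in a window and shows no binding.

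The Lgl family and Scribble module held 5 tested members besides Llgl1 and Llgl2, of which 1 changed, beside 40.2% of all tested genes, too few members to read against that share: Scrib, the Scribble scaffold, had 17.1, 18.6 and 17.8 FPKM after Llgl1/2 siRNA, against 14.4, 13.97 and 15.6 FPKM after control siRNA (log2 change 0.26 ± 0.08, adjusted p = 0.020), a call lost without Llgl1/2 libraries 2 and 3 and control libraries 1 and 2 (adjusted p = 0.056 to 0.081). The list median was 0.05, and -0.02 without Llgl1/2 library 2.

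Among 27 genes of non-muscle myosin and its regulators, small GTPases among them, 3 rose and 6 fell (median -0.03, and -0.0053 without Llgl1/2 library 1 and 0.0032 without control library 2). The shares over all tested genes were 22.1% higher and 18.1% lower. Myl12b, a regulatory light chain of non-muscle myosin, had 130.2, 128 and 132 FPKM after Llgl1/2 siRNA, against 247, 228 and 225 FPKM after control siRNA (log2 change -0.84 ± 0.08, adjusted p = 3.5e-06). The near-identical Myl12a also fell (log2 change -0.42 ± 0.08, adjusted p = 0.0012, named after its value was seen); reads can be split between these copies, so each is uncertain. Rhoc, a GTPase of actin and motility, had 112, 90.9 and 97.3 FPKM after Llgl1/2 siRNA, against 160.1, 158 and 158 FPKM after control siRNA (log2 change -0.66 ± 0.10, adjusted p = 1.4e-04). Rnd1, a small GTPase that opposes contractility, had 69.04, 64.3 and 55.2 FPKM after Llgl1/2 siRNA, against 89.3, 98.9 and 89.1 FPKM after control siRNA (log2 change -0.55 ± 0.10, adjusted p = 5.4e-04). These 3 genes were apart between groups. Among the members that rose, Myh14, a non-muscle myosin heavy chain, had 16.8, 18.9 and 18.9 FPKM after Llgl1/2 siRNA, against 9.22, 9.52 and 13.5 FPKM after control siRNA (log2 change 0.73 ± 0.15, adjusted p = 0.0019). Ppp1r12b, a targeting subunit of myosin phosphatase, had 46.2, 51.3 and 48.3 FPKM after Llgl1/2 siRNA, against 29.8, 32.3 and 36.8 FPKM after control siRNA (log2 change 0.55 ± 0.09, adjusted p = 4.0e-04). Mylk, myosin light chain kinase, rose as well (log2 change 0.43 ± 0.13, adjusted p = 0.019). The call of Mylk was lost without Llgl1/2 libraries 1 and 3 and control library 1 (adjusted p = 0.055 to 0.068). Against Yap siRNA, 15 of the 27 genes were higher after Llgl1/2 siRNA and 3 lower (median 0.31), beside 28.0% and 19.0% of all tested genes.

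Of 26 genes of SNARE proteins and the exocyst, which tether and fuse vesicles, 6 rose and 2 fell (median -0.03, and 0.02 without Llgl1/2 library 1). The share that rose was near that of all tested genes, of which 22.1% were higher and 18.1% lower. Vamp8, a SNARE of endosomes and granules, had 139, 158 and 128 FPKM after Llgl1/2 siRNA, against 105, 101 and 109 FPKM after control siRNA (log2 change 0.43 ± 0.09, adjusted p = 0.0016). Stxbp3, a syntaxin-binding protein (log2 change 0.36 ± 0.08, adjusted p = 0.0025), and the exocyst subunit Exoc2 (log2 change 0.33 ± 0.08, adjusted p = 0.0058) rose as well. Groups were apart in these 3 genes. Stxbp2 (log2 change -0.39 ± 0.13, adjusted p = 0.028) and the endosomal syntaxin Stx7 (log2 change -0.22 ± 0.07, adjusted p = 0.031) fell. The call of Stxbp2 was lost without Llgl1/2 libraries 2 and 3 and control libraries 1 and 2 (adjusted p = 0.051 to 0.11). That of Stx7 was lost without Llgl1/2 libraries 1 and 2 and control libraries 1 and 2 (adjusted p = 0.051 to 0.13).

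Spindle orientation genes numbered 12, of which 3 rose and 5 fell (median -0.09, and -0.14 without Llgl1/2 library 3, -0.04 without control library 2 and -0.17 without control library 3). Beside them, 22.1% of all tested genes were higher and 18.1% lower. No member rose without Llgl1/2 library 3, and 1 rose without Llgl1/2 library 2 or any 1 control library. The inhibitory G protein subunits that anchor the orientation complex at the cortex were lower. Gnai2 had 194, 177 and 185 FPKM after Llgl1/2 siRNA, against 281, 273 and 258 FPKM after control siRNA (log2 change -0.54 ± 0.07, adjusted p = 7.9e-05). Gnai3 had 32.7, 29.2 and 26.9 FPKM after Llgl1/2 siRNA, against 44.7, 43.5 and 39.1 FPKM after control siRNA (log2 change -0.51 ± 0.08, adjusted p = 3.6e-04). The mitotic kinase Aurka had 15.5, 15.6 and 17.1 FPKM after Llgl1/2 siRNA, against 23.2, 22.1 and 20.1 FPKM after control siRNA (log2 change -0.41 ± 0.09, adjusted p = 0.0027). Its activator Tpx2 had 23.3, 23.8 and 25.9 FPKM after Llgl1/2 siRNA, against 41.3, 43.4 and 36.05 FPKM after control siRNA (log2 change -0.70 ± 0.10, adjusted p = 1.3e-04). In all 4 genes every Llgl1/2 library was below every control library. Numa1, which links the cortex to dynein (log2 change 0.26 ± 0.09, adjusted p = 0.026), and the motor genes Dctn1 (log2 change 0.28 ± 0.08, adjusted p = 0.011) and Dync1i2 (log2 change 0.23 ± 0.08, adjusted p = 0.035) rose. Numa1 lost its call without Llgl1/2 libraries 2 and 3 and control libraries 1 and 3 (adjusted p = 0.051 to 0.11). Dctn1 lost its call without Llgl1/2 library 3 and control library 2 (adjusted p = 0.052 to 0.060). Dync1i2 lost its call without Llgl1/2 libraries 1, 2 and 3 and control libraries 1, 2 and 3 (adjusted p = 0.054 to 0.11).

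**Figure D4:**
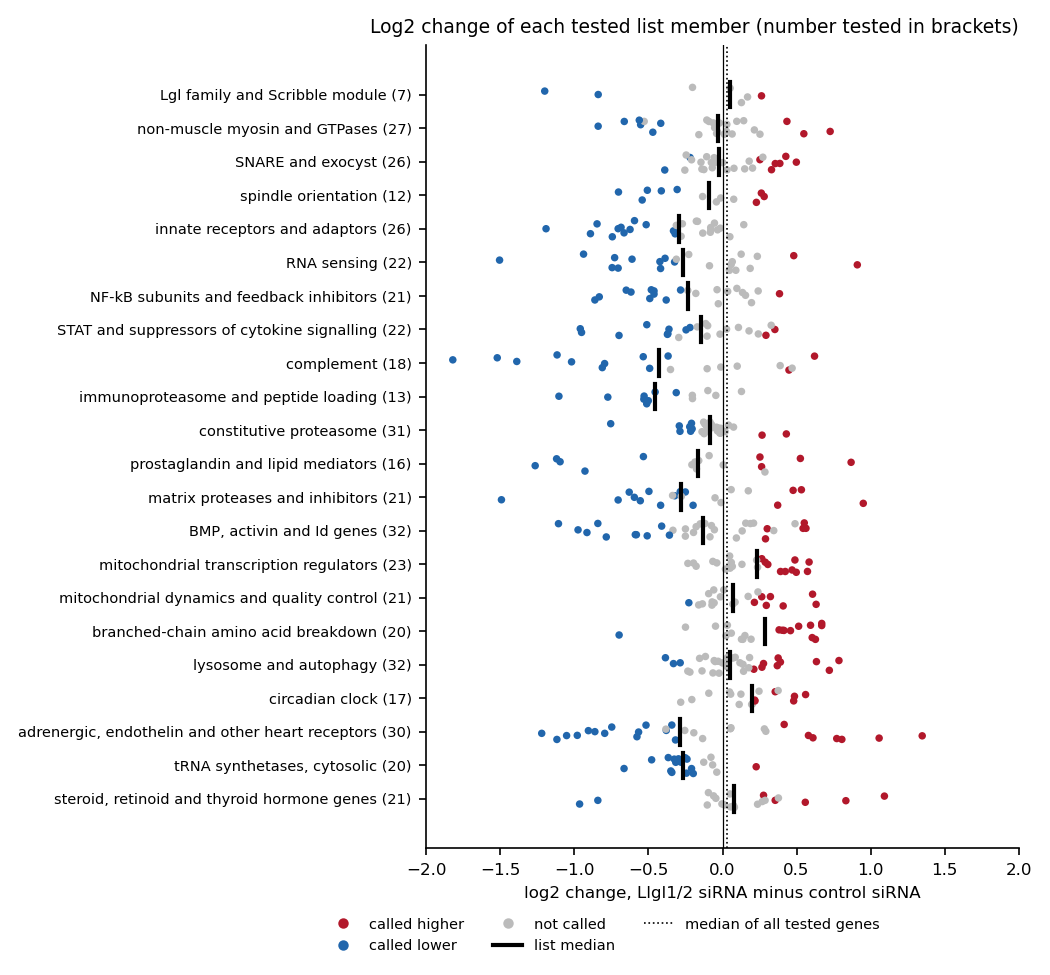
Each point is a tested member of a gene list, placed by its log2 change after Llgl1/2 siRNA relative to control siRNA (x axis); red and blue points passed the adjusted p of 0.05, black bars are list medians and the dotted line is the median of all tested genes at 0.03. Lists of innate receptors, complement and the immunoproteasome lie to the left (medians -0.30, -0.43 and -0.46), and branched-chain amino acid breakdown lies to the right (median 0.29).

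Receptors that sense microbes and cytokines fell in 12 of 26 tested members and rose in none (median -0.30, beside 18.1% of all tested genes lower). Like every list here, this one was chosen with earlier results known, so its counts are description only. Cd14, the coreceptor for lipopolysaccharide, had 8.45, 8.26 and 6.11 FPKM after Llgl1/2 siRNA, against 17.97, 19.8 and 17.8 FPKM after control siRNA (log2 change -1.19 ± 0.15, adjusted p = 4.3e-05). Tlr2, the receptor for bacterial lipoproteins, had 4.88, 4.98 and 5.59 FPKM after Llgl1/2 siRNA, against 8.93, 9.44 and 8.29 FPKM after control siRNA (log2 change -0.69 ± 0.10, adjusted p = 1.6e-04). Irak3, a brake on Toll-like receptor signalling, had 7.97, 6.82 and 6.9 FPKM after Llgl1/2 siRNA, against 14.6, 15.2 and 12.99 FPKM after control siRNA (log2 change -0.89 ± 0.10, adjusted p = 1.4e-05). Il6st, the shared signal subunit of interleukin-6 receptors, had 42.1, 48.7 and 46.2 FPKM after Llgl1/2 siRNA, against 69.02, 72.9 and 66.2 FPKM after control siRNA (log2 change -0.59 ± 0.08, adjusted p = 4.4e-05). None of these 4 genes overlapped between the groups. All 4 were also lower than after Yap siRNA, for example Irak3, with 12.7, 11.6 and 11.4 FPKM after Yap siRNA (log2 difference -0.65 ± 0.10, adjusted p = 1.4e-04). Over the whole list, 3 members were higher and 8 lower than after Yap siRNA (median log2 difference -0.12), in a comparison that uses the same Llgl1/2 libraries. Of all tested genes, 28.0% were higher and 19.0% lower there.

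Of 22 genes that sense RNA or act next to those sensors, 10 fell and 2 rose (median -0.27, and -0.16 without control library 2). Beside them, 18.1% of all tested genes were lower and 22.1% higher. Oasl, a relative of the 2-5A synthetases, had 31.8, 36.4 and 29.5 FPKM after Llgl1/2 siRNA, against 98.01, 97.2 and 87.1 FPKM after control siRNA (log2 change -1.51 ± 0.11, adjusted p = 6.5e-07). Oasl2 had 21.5, 26.5 and 20 FPKM after Llgl1/2 siRNA, against 42.2, 49.6 and 40.8 FPKM after control siRNA (log2 change -0.94 ± 0.12, adjusted p = 4.7e-05). Irf7, the transcription factor that amplifies interferon, had 183, 219 and 179.6 FPKM after Llgl1/2 siRNA, against 330.1, 321 and 310.0 FPKM after control siRNA (log2 change -0.73 ± 0.08, adjusted p = 1.7e-05). The groups did not overlap in these 3 genes, and Irf7 and Oasl2 hold the interferon motif shown above. Mavs and Irf3 were the members that rose. Mavs, the mitochondrial adaptor of RNA helicases, had 18.2, 20.7 and 20.9 FPKM after Llgl1/2 siRNA, against 9.44, 9.71 and 11.3 FPKM after control siRNA (log2 change 0.91 ± 0.10, adjusted p = 1.5e-05). Irf3, which its signal activates, had 48.2, 43.7 and 44.9 FPKM after Llgl1/2 siRNA, against 32.4, 32.8 and 31.97 FPKM after control siRNA (log2 change 0.48 ± 0.08, adjusted p = 2.9e-04). The list thus held members moving in opposite directions.

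NF-kB is a set of transcription factors held in the cytoplasm by inhibitors that are themselves its target genes. Of 21 subunits, inhibitors and adaptors 10 fell and 1 rose (median -0.23), beside 18.1% of all tested genes lower and 22.1% higher. The inhibitor Nfkbia had 39.9, 39.1 and 40.8 FPKM after Llgl1/2 siRNA, against 63.8, 65.2 and 60.7 FPKM after control siRNA (log2 change -0.65 ± 0.08, adjusted p = 2.3e-05). The subunit Nfkb1 had 26.1, 27.1 and 27.8 FPKM after Llgl1/2 siRNA, against 36.6, 39.7 and 37.9 FPKM after control siRNA (log2 change -0.48 ± 0.07, adjusted p = 1.5e-04). The nuclear cofactor Bcl3 had 8.4, 9.58 and 8.84 FPKM after Llgl1/2 siRNA, against 17.5, 16.7 and 16.98 FPKM after control siRNA (log2 change -0.86 ± 0.09, adjusted p = 6.4e-06). Birc3, a ubiquitin ligase of this pathway, had 3.2, 3.14 and 2.53 FPKM after Llgl1/2 siRNA, against 6.95, 5.84 and 5.37 FPKM after control siRNA (log2 change -0.83 ± 0.13, adjusted p = 2.4e-04). Subunits and inhibitors fell side by side in these genes. Traf3, an adaptor that restrains the noncanonical branch, was the member that rose (7.5, 7.92 and 8.31 FPKM after Llgl1/2 siRNA, against 5.81, 6.13 and 5.53 FPKM after control siRNA, log2 change 0.38 ± 0.10, adjusted p = 0.0060). Windows of 6 of the 18 tested members with a promoter sequence (33.3%) held the NF-kB motif, beside 1.73% of those of all tested genes. These are members that fell and members that did not, in a list that holds target genes of NF-kB by choice. The share therefore does not bear on the falls.

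Signal carriers downstream of cytokine receptors fell in 9 of 22 members and rose in 2 (median -0.14). The shares over all tested genes were 18.1% lower and 22.1% higher. Socs3, the feedback inhibitor of interleukin-6 signalling, had 10.8, 14.4 and 11.8 FPKM after Llgl1/2 siRNA, against 26.7, 21.97 and 25.9 FPKM after control siRNA (log2 change -0.96 ± 0.10, adjusted p = 1.2e-05). Stat3, the factor it opposes, had 70.1, 70.95 and 71.5 FPKM after Llgl1/2 siRNA, against 89.9, 90.2 and 95.4 FPKM after control siRNA (log2 change -0.37 ± 0.07, adjusted p = 7.8e-04). Stat6, which carries interleukin-4 signals, had 12.97, 12.5 and 13.7 FPKM after Llgl1/2 siRNA, against 22.7, 23.5 and 19.4 FPKM after control siRNA (log2 change -0.70 ± 0.09, adjusted p = 4.8e-05). Irf8, a myeloid transcription factor, had 1.92, 1.16 and 1.35 FPKM after Llgl1/2 siRNA, against 3.73, 3.32 and 4.25 FPKM after control siRNA (log2 change -0.95 ± 0.18, adjusted p = 8.1e-04). The 4 genes did not overlap between groups. Socs2, another such inhibitor, rose with overlapping groups (log2 change 0.35 ± 0.10, adjusted p = 0.013), and its call was lost without Llgl1/2 library 3 and control library 2 (adjusted p = 0.069 to 0.074). Irf2 rose too (log2 change 0.29 ± 0.11, adjusted p = 0.042), a call lost without Llgl1/2 libraries 1, 2 and 3 and control libraries 1, 2 and 3 (adjusted p = 0.067 to 0.11). The count of falls in the list was 5 without Llgl1/2 library 3 and 4 without control library 2.

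Complement genes had the steepest single fall among the lists and fell in 10 of 18 members, with 2 rises (median -0.43). Beside them, 18.1% of all tested genes were lower and 22.1% higher. C3, the protein on which all activation routes converge, had 11.9, 11.2 and 10.5 FPKM after Llgl1/2 siRNA, against 42.6, 44.3 and 39.7 FPKM after control siRNA (log2 change -1.82 ± 0.10, adjusted p = 6.0e-08). The proteases of the classical route fell with it: C1r had 25.7, 27.2 and 22.9 FPKM after Llgl1/2 siRNA, against 57.6, 61.6 and 49.1 FPKM after control siRNA (log2 change -1.12 ± 0.10, adjusted p = 2.7e-06). C1s had 3.8, 5.55 and 3.57 FPKM after Llgl1/2 siRNA, against 11.7, 15.1 and 11.7 FPKM after control siRNA (log2 change -1.39 ± 0.14, adjusted p = 8.4e-06). Serping1, the inhibitor of both proteases, had 17.3, 14.5 and 13.01 FPKM after Llgl1/2 siRNA, against 45.4, 48.1 and 40.3 FPKM after control siRNA (log2 change -1.52 ± 0.12, adjusted p = 9.3e-07). All 4 genes were lower than after Yap siRNA too, as in C3, with 25.5, 25.2 and 19.6 FPKM after Yap siRNA (log2 difference -0.99 ± 0.10, adjusted p = 4.9e-06). Over the whole list none was higher and 8 were lower than after Yap siRNA (median log2 difference -0.19), beside 28.0% and 19.0% of all tested genes. This comparison uses the same Llgl1/2 libraries, by whose values the named genes were chosen. The members that rose were Cd59 and Masp1. Cd59, which blocks the membrane attack complex, had 172, 206 and 200.4 FPKM after Llgl1/2 siRNA, against 131, 139 and 152 FPKM after control siRNA (log2 change 0.45 ± 0.09, adjusted p = 0.0015). Masp1, a protease of the lectin route, had 3.56, 3.85 and 4.18 FPKM after Llgl1/2 siRNA, against 1.78, 2.3 and 2.43 FPKM after control siRNA (log2 change 0.62 ± 0.13, adjusted p = 0.0015).

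The immunoproteasome replaces the catalytic subunits of the standard proteasome in cells under interferon. Of its subunits and the genes of peptide loading, 8 of 13 fell and none rose (median -0.46, beside 18.1% of all tested genes lower). Psmb8 had 20.8, 21.7 and 17.03 FPKM after Llgl1/2 siRNA, against 47.7, 43.1 and 40.3 FPKM after control siRNA (log2 change -1.10 ± 0.12, adjusted p = 1.8e-05). Psmb10 had 18.7, 16.6 and 19 FPKM after Llgl1/2 siRNA, against 31.6, 33.05 and 30.2 FPKM after control siRNA (log2 change -0.77 ± 0.09, adjusted p = 1.4e-05). Erap1, which trims peptides in the endoplasmic reticulum, had 12.4, 14.4 and 13.8 FPKM after Llgl1/2 siRNA, against 19.1, 21.3 and 19.6 FPKM after control siRNA (log2 change -0.53 ± 0.09, adjusted p = 5.0e-04). The chaperone Calr had 689, 655 and 639 FPKM after Llgl1/2 siRNA, against 935, 932 and 997 FPKM after control siRNA (log2 change -0.53 ± 0.07, adjusted p = 1.0e-04). These 4 genes lay apart between the groups. The interferon motif occurred in 7 of the 11 windows of the list (63.6%) and the NF-kB motif in 3 (27.3%). Over all tested genes these shares were 2.93% and 1.73%. The 11 windows belong to members that fell and members that did not, so the shares do not bear on the falls. Calr was far higher after Yap siRNA, at 1450.5, 1538 and 1341 FPKM (log2 difference -1.12 ± 0.07, adjusted p = 9.3e-08).

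In the constitutive proteasome 7 of 31 subunits were lower and 2 higher (median -0.09, and -0.04 without control library 1). The share that fell was not far from that of all tested genes (18.1% lower, 22.1% higher). Psmd3, of the regulatory particle, changed most, with 68.8, 67.7 and 64.6 FPKM after Llgl1/2 siRNA, against 117, 109.8 and 114 FPKM after control siRNA (log2 change -0.76 ± 0.07, adjusted p = 2.7e-06). Psma5 (log2 change -0.29 ± 0.08, adjusted p = 0.010) and Psmd1 (log2 change -0.22 ± 0.07, adjusted p = 0.019) fell by less, and Psma3 (48.9, 53.2 and 48.8 FPKM after Llgl1/2 siRNA, against 39, 38.4 and 33.9 FPKM after control siRNA, log2 change 0.43 ± 0.07, adjusted p = 5.0e-04) and Psmb6 (log2 change 0.27 ± 0.10, adjusted p = 0.043, with overlapping groups) rose. Psma5 lost its call without control library 1 (adjusted p = 0.063). Psmd1 lost its call without Llgl1/2 libraries 2 and 3 and control library 1 (adjusted p = 0.052 to 0.061), and Psmb6 without Llgl1/2 libraries 1 and 3 and control libraries 2 and 3 (adjusted p = 0.068 to 0.20). The count of falls was 1 to 3 when any of Llgl1/2 libraries 2 and 3 and control libraries 1 and 2 was left out. Endothelial marker sums were lower in the Llgl1/2 libraries beside all of these immune lists. Macrophage and leukocyte markers fell in 5 of 14 tested members and rose in none (median -0.32), and their summed levels overlapped between the groups. C1qa (log2 change -0.54 ± 0.19, adjusted p = 0.042) and C1qb (log2 change -0.80 ± 0.16, adjusted p = 0.0017) stand both among those markers and in the complement list. The call of C1qa was lost without Llgl1/2 libraries 2 and 3 and control libraries 1 and 2 (adjusted p = 0.093 to 0.15). The part of either cell type in the falls was not tested.

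Prostaglandin genes moved in both directions, with 4 of 16 higher and 5 lower (median -0.17, beside 22.1% of all tested genes higher and 18.1% lower). The cyclooxygenases, which make the common precursor, were lower: Ptgs2 had 10.01, 8.56 and 11.1 FPKM after Llgl1/2 siRNA, against 22.1, 25.1 and 20.8 FPKM after control siRNA (log2 change -1.12 ± 0.11, adjusted p = 5.5e-06). Ptgs1 had 7.15, 6.35 and 6.14 FPKM after Llgl1/2 siRNA, against 13.7, 13.7 and 12.7 FPKM after control siRNA (log2 change -0.93 ± 0.12, adjusted p = 4.4e-05). Ptges, the inducible synthase of prostaglandin E2, had 0.2, 0.39 and 0.49 FPKM after Llgl1/2 siRNA, against 2.56, 2.4 and 1.85 FPKM after control siRNA (log2 change -1.26 ± 0.16, adjusted p = 3.5e-05). Pla2g2a, a secreted phospholipase, had 8.43, 7.55 and 7.18 FPKM after Llgl1/2 siRNA, against 15.8, 20.1 and 17.1 FPKM after control siRNA (log2 change -1.10 ± 0.11, adjusted p = 8.2e-06), far below the 115, 119 and 90.5 FPKM after Yap siRNA (log2 difference -3.64 ± 0.11, adjusted p = 2.0e-10). Groups were apart in these 4 genes. Other members rose. Ptgds, the synthase of prostaglandin D2, had 25.6, 25.7 and 24.6 FPKM after Llgl1/2 siRNA, against 11.3, 11.2 and 18.9 FPKM after control siRNA (log2 change 0.87 ± 0.15, adjusted p = 6.0e-04). Ptgfr, a receptor for prostaglandin F2 alpha, had 44.8, 54.1 and 61.9 FPKM after Llgl1/2 siRNA, against 33.4, 35.4 and 41.5 FPKM after control siRNA (log2 change 0.53 ± 0.11, adjusted p = 0.0023). Pla2g5 (log2 change 0.26 ± 0.09, adjusted p = 0.029) and Ptges2 (log2 change 0.25 ± 0.10, adjusted p = 0.048) also rose. The call of Pla2g5 was lost without Llgl1/2 libraries 2 and 3 and control libraries 1 and 2 (adjusted p = 0.061 to 0.14). The call of Ptges2 was lost without Llgl1/2 libraries 1, 2 and 3 and control libraries 1 and 2 (adjusted p = 0.075 to 0.16). The list held 2 rises without each of Llgl1/2 libraries 2 and 3 and control libraries 1 and 2.

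Matrix proteases and their inhibitors fell in 11 of 21 members and rose in 4 (median -0.28, and 7 falls without control library 2). The share that rose was near that of all tested genes (22.1% higher, 18.1% lower). Mmp12, the macrophage elastase, had 17.4, 18.5 and 16.7 FPKM after Llgl1/2 siRNA, against 51.7, 53.3 and 48.4 FPKM after control siRNA (log2 change -1.49 ± 0.21, adjusted p = 3.8e-04). Mmp14, a membrane-bound collagenase, had 27.6, 23.9 and 22.3 FPKM after Llgl1/2 siRNA, against 40.4, 46.6 and 35.4 FPKM after control siRNA (log2 change -0.70 ± 0.11, adjusted p = 2.9e-04). Its inhibitor Reck had 2.33, 2.63 and 2.62 FPKM after Llgl1/2 siRNA, against 4.61, 4.77 and 4.01 FPKM after control siRNA (log2 change -0.63 ± 0.12, adjusted p = 0.0010). Mmp15, another membrane-bound member, moved the other way, with 20.4, 22.9 and 22.3 FPKM after Llgl1/2 siRNA, against 10.2, 9.4 and 13.2 FPKM after control siRNA (log2 change 0.95 ± 0.12, adjusted p = 4.4e-05). Every Llgl1/2 library was outside the control range in these 4 genes. Mmp11 (log2 change 0.53 ± 0.11, adjusted p = 0.0014), Adam19 (log2 change 0.37 ± 0.07, adjusted p = 0.0014) and Adamts7 (log2 change 0.48 ± 0.11, adjusted p = 0.0048) rose too. Macrophage and leukocyte marker sums overlapped between the groups, and fibroblast sums as well; their part in these changes was not tested.

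Genes of BMP and activin signalling fell in 10 of 32 members and rose in 5 (median -0.13, and -0.07 without control library 2). Of all tested genes, 18.1% were lower and 22.1% higher. Among ligands, Inhba, the activin A subunit, had 9.63, 9.97 and 9.67 FPKM after Llgl1/2 siRNA, against 18.9, 21.6 and 17.6 FPKM after control siRNA (log2 change -0.92 ± 0.11, adjusted p = 2.3e-05). Bmp6 had 28.2, 29.4 and 25.7 FPKM after Llgl1/2 siRNA, against 52.8, 55.8 and 43.6 FPKM after control siRNA (log2 change -0.84 ± 0.11, adjusted p = 5.0e-05). Acvrl1, the endothelial receptor for BMP9, had 9.52, 8.45 and 7.51 FPKM after Llgl1/2 siRNA, against 18.5, 18.97 and 15.5 FPKM after control siRNA (log2 change -0.98 ± 0.11, adjusted p = 2.4e-05). The secreted Fstl1 had 172, 157 and 166 FPKM after Llgl1/2 siRNA, against 252, 258 and 234 FPKM after control siRNA (log2 change -0.58 ± 0.07, adjusted p = 2.6e-05). These 4 genes did not overlap between groups. Id2, a target gene that blocks differentiation factors, rose, with 54.8, 62.3 and 60.04 FPKM after Llgl1/2 siRNA, against 37.6, 40.5 and 42.4 FPKM after control siRNA (log2 change 0.54 ± 0.08, adjusted p = 2.1e-04). The secreted BMP antagonist Grem1 had 10.9, 10.01 and 10.99 FPKM after Llgl1/2 siRNA, against 6.87, 6.9 and 6.8 FPKM after control siRNA (log2 change 0.56 ± 0.11, adjusted p = 0.0012). The procollagen protease Bmp1 (log2 change 0.30 ± 0.08, adjusted p = 0.0074) and the ligands Bmp5 (log2 change 0.55 ± 0.15, adjusted p = 0.0080) and Bmp7 (log2 change 0.29 ± 0.09, adjusted p = 0.017) rose as well. The call of Bmp7 was lost without Llgl1/2 libraries 1 and 3 and control library 1 (adjusted p = 0.052 to 0.098). Acvrl1 and endothelial marker sums were lower in the same libraries, and the part of those cells was not tested.

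Genes that signal to heart muscle were split, with 7 of 30 higher and 14 lower (median -0.29). The share that rose was near that of all tested genes, of which 22.1% were higher and 18.1% lower. Receptors of slowing signals were higher. Adora1, the adenosine A1 receptor, had 15.5, 17.1 and 16 FPKM after Llgl1/2 siRNA, against 5.16, 4.35 and 8.34 FPKM after control siRNA (log2 change 1.35 ± 0.17, adjusted p = 5.3e-05). Chrm2, the muscarinic receptor through which the vagus slows the heart, had 37.4, 46.2 and 45.6 FPKM after Llgl1/2 siRNA, against 22.99, 24.2 and 27.1 FPKM after control siRNA (log2 change 0.77 ± 0.13, adjusted p = 4.4e-04). Rgs6, which ends signalling of that receptor, had 17.5, 26.2 and 24.4 FPKM after Llgl1/2 siRNA, against 9.49, 9.07 and 12.4 FPKM after control siRNA (log2 change 1.06 ± 0.15, adjusted p = 1.3e-04). All Llgl1/2 libraries were above all control libraries in these 3 genes, and none of the 3 differed by the test from Yap siRNA, where Adora1 had 18.9, 14.7 and 19.4 FPKM (log2 difference -0.11 ± 0.17, adjusted p = 0.62). The alpha-1B adrenergic receptor Adra1b had 9.05, 11.9 and 12.3 FPKM after Llgl1/2 siRNA, against 6.34, 5.28 and 5.98 FPKM after control siRNA (log2 change 0.81 ± 0.13, adjusted p = 3.0e-04), and it was higher still after Yap siRNA, at 18.3, 15.3 and 20.7 FPKM (log2 difference -0.67 ± 0.13, adjusted p = 9.2e-04). Npr2, the receptor for C-type natriuretic peptide, had 6.54, 7.86 and 7.22 FPKM after Llgl1/2 siRNA, against 4.32, 4.12 and 4.66 FPKM after control siRNA (log2 change 0.61 ± 0.10, adjusted p = 4.2e-04). The endothelin receptor Ednra had 21.99, 29.6 and 28.7 FPKM after Llgl1/2 siRNA, against 16.2, 16.2 and 20.1 FPKM after control siRNA (log2 change 0.58 ± 0.12, adjusted p = 0.0016). Both rose with no overlap between groups.

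The members that fell included a vasoactive peptide, a peptide-processing enzyme and a natriuretic peptide receptor. Ece1, which activates endothelin, had 56.8, 58.9 and 60.99 FPKM after Llgl1/2 siRNA, against 123, 139 and 109 FPKM after control siRNA (log2 change -1.05 ± 0.08, adjusted p = 1.1e-06). Adm, the vasodilator adrenomedullin, had 33.9, 34.5 and 33.9 FPKM after Llgl1/2 siRNA, against 77.4, 72.3 and 56.7 FPKM after control siRNA (log2 change -0.98 ± 0.10, adjusted p = 6.8e-06). Npr1, the receptor for atrial natriuretic peptide, had 3.06, 2.83 and 2.6 FPKM after Llgl1/2 siRNA, against 8.4, 7.45 and 6.21 FPKM after control siRNA (log2 change -1.12 ± 0.12, adjusted p = 1.0e-05), opposite in direction to Npr2. All 3 genes were also lower than after Yap siRNA, for example Npr1, with 5.0, 5.26 and 5.12 FPKM after Yap siRNA (log2 difference -0.68 ± 0.12, adjusted p = 4.1e-04). Over the whole list 2 members were higher and 7 lower than after Yap siRNA (median log2 difference -0.12). The share lower was near that of all tested genes, of which 28.0% were higher and 19.0% lower. This comparison uses the same Llgl1/2 libraries, by whose values the named genes were chosen. Endothelial cells make several of these products, and the endothelial marker sum in the same libraries was lower (ratio of 0.458 to control), but its part in the falls was not tested.

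**Figure D5:**
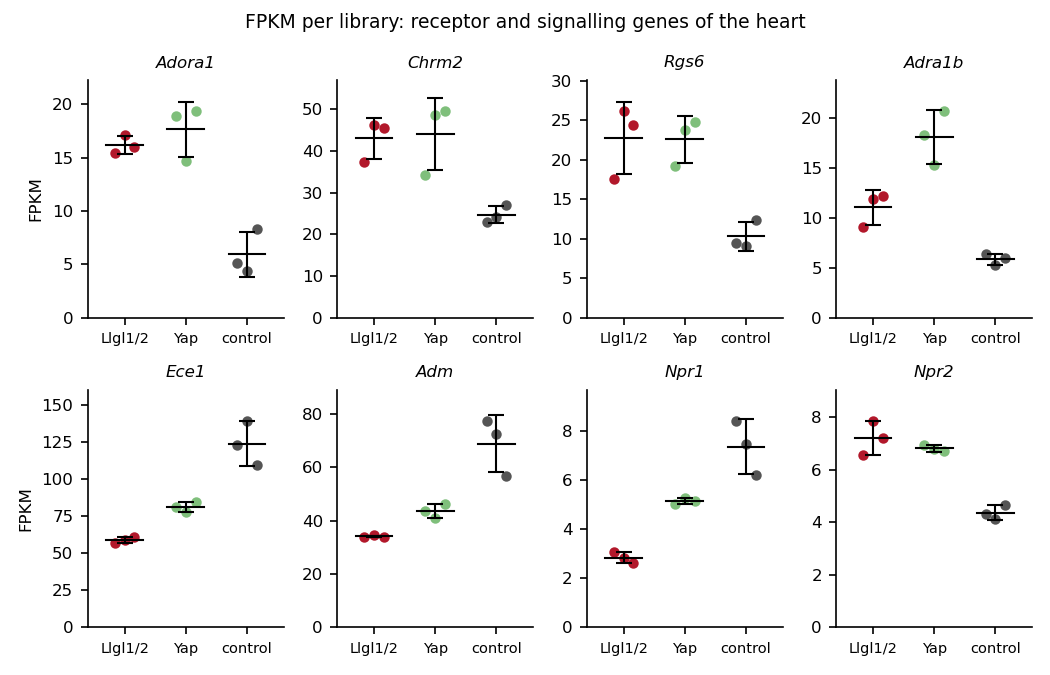
FPKM (y axis, from 0) per library after Llgl1/2 siRNA (red), Yap siRNA (green) and control siRNA (grey) for 8 receptor and signalling genes, with bars for the mean and SD of 3 libraries. Adora1, Chrm2 and Rgs6 sit near the Yap siRNA libraries and above the controls, while Ece1, Adm and Npr1 are lowest after Llgl1/2 siRNA.

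Regulators of mitochondrial gene expression rose in 10 of 23 members and fell in none (median 0.23, beside 22.1% of all tested genes higher). Esrrg, a nuclear receptor of oxidative metabolism, had 20.96, 26.2 and 24.2 FPKM after Llgl1/2 siRNA, against 13.7, 15.7 and 17.7 FPKM after control siRNA (log2 change 0.57 ± 0.11, adjusted p = 8.9e-04). Tfb2m, an initiation factor of mitochondrial transcription, had 24.9, 26.6 and 24.6 FPKM after Llgl1/2 siRNA, against 19.4, 16.9 and 16.8 FPKM after control siRNA (log2 change 0.50 ± 0.08, adjusted p = 3.4e-04). The mitochondrial RNA polymerase Polrmt had 6.05, 6.11 and 6.62 FPKM after Llgl1/2 siRNA, against 4.12, 4.55 and 4.95 FPKM after control siRNA (log2 change 0.39 ± 0.11, adjusted p = 0.014). Ppard, a receptor for fatty acids, had 34.4, 35.5 and 33.98 FPKM after Llgl1/2 siRNA, against 27.9, 27.8 and 28.7 FPKM after control siRNA (log2 change 0.29 ± 0.09, adjusted p = 0.016). The rises were modest, and groups were apart in each. Polrmt lost its call without Llgl1/2 library 3 and control library 1 (adjusted p = 0.057 to 0.064) and Ppard without Llgl1/2 library 2 and control library 2 (adjusted p = 0.052 to 0.058). The count of rises was 4 to 6 without each of the Llgl1/2 libraries or control library 1 or 2, and the median 0.14 without Llgl1/2 library 2 and 0.15 without control library 1.

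Of 21 genes of mitochondrial dynamics and quality control, 7 rose and 1 fell (median 0.07, and 0.0030 without control library 2). Beside them, 22.1% of all tested genes were higher and 18.1% lower. Pink1, the kinase that marks damaged mitochondria, had 99.3, 108 and 105 FPKM after Llgl1/2 siRNA, against 61.3, 60.98 and 79.5 FPKM after control siRNA (log2 change 0.63 ± 0.09, adjusted p = 1.6e-04). Bnip3, a receptor for their removal, had 82.4, 85.4 and 86.9 FPKM after Llgl1/2 siRNA, against 62.1, 50.7 and 53.9 FPKM after control siRNA (log2 change 0.61 ± 0.08, adjusted p = 4.9e-05). Afg3l2, an inner membrane protease (log2 change 0.41 ± 0.07, adjusted p = 6.4e-04), and Mff, a fission factor (log2 change 0.30 ± 0.06, adjusted p = 0.0022), rose, and the protease Yme1l1 fell (log2 change -0.23 ± 0.08, adjusted p = 0.038). The call of Yme1l1 was lost without Llgl1/2 libraries 1, 2 and 3 and control libraries 1 and 2 (adjusted p = 0.067 to 0.12). Pink1 was higher after Yap siRNA, at 158, 155 and 171 FPKM (log2 difference -0.63 ± 0.09, adjusted p = 1.2e-04). Over the whole list, 5 members were higher and 2 lower than after Yap siRNA, beside 28.0% and 19.0% of all tested genes.

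Breakdown of branched-chain amino acids had the highest median of the metabolic lists, with 10 of 20 members higher and 1 lower (median 0.29). The shares over all tested genes were 22.1% higher and 18.1% lower. Bckdha, a subunit of the rate-limiting dehydrogenase, had 44.1, 38.6 and 41.6 FPKM after Llgl1/2 siRNA, against 26.1, 23.7 and 27.3 FPKM after control siRNA (log2 change 0.67 ± 0.08, adjusted p = 2.4e-05). Further down the pathway, Mccc2 had 41.6, 43.4 and 44.2 FPKM after Llgl1/2 siRNA, against 30.1, 26.1 and 28.5 FPKM after control siRNA (log2 change 0.59 ± 0.07, adjusted p = 3.6e-05). Mcee had 21.5, 26.3 and 25.3 FPKM after Llgl1/2 siRNA, against 14.8, 15.1 and 14.8 FPKM after control siRNA (log2 change 0.67 ± 0.09, adjusted p = 4.5e-05). The member that fell was Bcat1, the cytosolic transaminase of the first step, with 29.8, 27.8 and 30.1 FPKM after Llgl1/2 siRNA, against 52.3, 49.2 and 42.9 FPKM after control siRNA (log2 change -0.70 ± 0.11, adjusted p = 2.7e-04). Every Llgl1/2 library was outside the control range in all 4 genes. Cardiomyocyte marker sums were 32901 to 36095 FPKM after Llgl1/2 siRNA and 28136 to 32437 FPKM after control siRNA beside these metabolic lists; their part was not tested.

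Lysosome and autophagy genes rose in 9 of 32 members and fell in 3 (median 0.05, and 0.03 without control library 1). The share that rose was not far from that of all tested genes (22.1% higher, 18.1% lower). Of the related transcription factors that drive lysosome genes, Tfeb had 24.1, 23.1 and 25.2 FPKM after Llgl1/2 siRNA, against 16.4, 14.8 and 14.4 FPKM after control siRNA (log2 change 0.63 ± 0.08, adjusted p = 5.2e-05). Mitf had 11.5, 12.5 and 12.6 FPKM after Llgl1/2 siRNA, against 6.8, 6.07 and 7.1 FPKM after control siRNA (log2 change 0.79 ± 0.09, adjusted p = 2.5e-05). Tfe3 went the other way, with 8.83, 8.41 and 7.97 FPKM after Llgl1/2 siRNA, against 10.7, 11.2 and 12 FPKM after control siRNA (log2 change -0.39 ± 0.09, adjusted p = 0.0036). Ulk1, the kinase that starts autophagy, had 14.8, 16.03 and 18.6 FPKM after Llgl1/2 siRNA, against 7.91, 8.98 and 12.2 FPKM after control siRNA (log2 change 0.72 ± 0.14, adjusted p = 0.0013). These 4 genes were apart between groups. Lysosomal enzymes were mixed: Ctsb, a cathepsin, rose (log2 change 0.39 ± 0.07, adjusted p = 4.8e-04), while the cathepsin Ctsl fell (log2 change -0.29 ± 0.07, adjusted p = 0.0061).

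Clock genes rose in 6 of 17 members and fell in none (median 0.20, and 3 rises without control library 1). Of all tested genes, 22.1% were higher and 18.1% lower. Tef, an output factor of the clock, had 12.7, 13.9 and 13.7 FPKM after Llgl1/2 siRNA, against 8.34, 9.01 and 9.0 FPKM after control siRNA (log2 change 0.56 ± 0.09, adjusted p = 2.4e-04). The repressor gene Per2 had 7.63, 7.6 and 7.28 FPKM after Llgl1/2 siRNA, against 5.35, 5.08 and 4.86 FPKM after control siRNA (log2 change 0.48 ± 0.11, adjusted p = 0.0030). Per3 had 8.39, 8.54 and 7.21 FPKM after Llgl1/2 siRNA, against 5.46, 5.05 and 5.85 FPKM after control siRNA (log2 change 0.49 ± 0.11, adjusted p = 0.0041). Per1 rose as well (log2 change 0.36 ± 0.11, adjusted p = 0.018), a call lost without Llgl1/2 libraries 1 and 3 and control library 1 (adjusted p = 0.065 to 0.078). The collection time of day is not given in the labels.

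Cytosolic tRNA synthetases, which charge tRNAs with amino acids, fell in 15 of 20 members and rose in 1 (median -0.27, beside 18.1% of all tested genes lower). The count of falls was 11 to 12 when any of Llgl1/2 libraries 2 and 3 and control libraries 1 and 2 was left out. Yars had 47.9, 46.1 and 46.4 FPKM after Llgl1/2 siRNA, against 74.2, 73.7 and 76.4 FPKM after control siRNA (log2 change -0.66 ± 0.06, adjusted p = 4.4e-06). Iars had 36.5, 41.05 and 36.5 FPKM after Llgl1/2 siRNA, against 52.7, 56.2 and 51.1 FPKM after control siRNA (log2 change -0.48 ± 0.08, adjusted p = 3.5e-04). Sars (log2 change -0.37 ± 0.07, adjusted p = 6.2e-04) and Kars (log2 change -0.34 ± 0.07, adjusted p = 0.0012) fell by less. Groups did not overlap in these 4 genes. Qars rose (56.7, 54.04 and 57.2 FPKM after Llgl1/2 siRNA, against 45.3, 48.2 and 49.6 FPKM after control siRNA, log2 change 0.23 ± 0.07, adjusted p = 0.015), a call lost without Llgl1/2 library 3 and control library 1 (adjusted p = 0.062 to 0.074). In the direct comparison with Yap siRNA, 10 of the 20 synthetases were higher after Llgl1/2 siRNA and none lower (median 0.16). Of all tested genes, 28.0% were higher and 19.0% lower there.

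Of 21 genes of steroid, retinoid and thyroid hormone signalling, 5 rose and 2 fell (median 0.08, and 0.13 to 0.14 without Llgl1/2 library 1 or 2 and 0.03 without control library 1; 3 rises without Llgl1/2 library 3 or control library 1). Rises in the list were about as frequent as over all tested genes (22.1% higher, 18.1% lower). The retinoid genes moved in both directions. Aldh1a1, an enzyme that makes retinoic acid, had 2.16, 1.78 and 2.48 FPKM after Llgl1/2 siRNA, against 0.61, 0.47 and 0.33 FPKM after control siRNA (log2 change 1.09 ± 0.15, adjusted p = 7.8e-05). Cyp26b1, which breaks it down, had 1.13, 1.19 and 1.29 FPKM after Llgl1/2 siRNA, against 3.5, 3.47 and 2.95 FPKM after control siRNA (log2 change -0.96 ± 0.12, adjusted p = 3.7e-05). Dhrs3, which returns retinaldehyde to retinol, had 10.4, 11.9 and 14.2 FPKM after Llgl1/2 siRNA, against 7.63, 5.57 and 5.99 FPKM after control siRNA (log2 change 0.83 ± 0.14, adjusted p = 3.2e-04). Against Yap siRNA, 3 of the 21 genes were higher after Llgl1/2 siRNA and 8 lower (median log2 difference -0.02), beside 28.0% and 19.0% of all tested genes. Both enzymes that rose were among those higher than after Yap siRNA, in a comparison that uses the same Llgl1/2 libraries. Aldh1a1 had 0.65, 0.87 and 0.67 FPKM there (log2 difference 0.86 ± 0.15, adjusted p = 4.0e-04). Dhrs3 had 5.88, 7.04 and 5.55 FPKM (log2 difference 0.88 ± 0.14, adjusted p = 1.6e-04). Tsc22d3, a target gene of glucocorticoids, rose (24.5, 25.9 and 26.2 FPKM after Llgl1/2 siRNA, against 17.4, 16 and 17.7 FPKM after control siRNA, log2 change 0.56 ± 0.09, adjusted p = 3.6e-04).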

How the data were processed

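Poly-A RNA of 9 libraries, 3 per group, was sequenced with a low-input BGISEQ-500 protocol, per the labels' protocols. The authors deposited FPKM per gene and library, rounded to 2 decimals. HISAT, Bowtie2 and rn6 are named in the submitters' processing notes without version or role, and the counting tool is not given in the sources used here. Counts are not part of the table, so count tests were not run. From the steps of low values, the FPKM worth of a fragment in the controls was roughly 0.92 to 0.94 of that in Llgl1/2 library 1, which says nothing of absolute depth. These are medians over genes within 1.4-fold of that library, so that they lie near 1 was largely fixed by the choice. A further FPKM column (1 column of no sample) repeats Llgl1/2 library 2 in each of the 14636 rows and was left out. Of 31 symbols read as dates or missing, 29 were found by gene ID in the RefSeq table of GRCr8.

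Genes that reached 1 FPKM in 3 or more libraries were tested on log2(FPKM + 1) with limma 3.58.1 under R 4.3.3, with all 9 libraries in 1 fit, trended and robust variances, 6 residual degrees of freedom and Benjamini-Hochberg adjustment over 10789 genes (threshold 0.05). Standard errors of log2 changes had a median of 0.106. The code was tested on simulated data. The 22 gene lists and 8 marker lists were chosen with earlier results of these data known. Genes named are both targets, the 15 largest rises and falls (mean of at least 5 FPKM in either group, no overlap), from each list up to 4 members of smallest p plus members called against the list's majority, and up to 3 markers per list by level. Genes named otherwise were chosen after their values were seen, and some genes that the rule names are not reported here. Alternatives were another pseudocount, filter, scaling, set of libraries, variance model or threshold, a replicate block, and leaving out each library. Lists and figures were made with Python 3.11.15 (pandas 2.3.3, matplotlib 3.10.9).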

Additional observations from a re-analysis of the deposited data

How the results depend on the processing

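No called gene named in the text changed direction under any alternative run, but of 177 named genes 150 stayed on the same side of the adjusted p of 0.05 in every alternative. Besides losses without single libraries, calls of C1qa, Dync1i2, Irf2, Psmb6, Ptges2 and Yme1l1 were lost with no filter (adjusted p = 0.051 to 0.076). Calls of Dync1i2, Irf2, Psmb6, Ptges2 and Pla2g5 were lost with median-ratio scaling (0.052 to 0.077). All 7 were lost with limma without trend or robust variances (0.053 to 0.083), that of Irf2 with quantile normalization (0.059) and that of C1qa with only the 6 libraries compared (0.11). An adjusted p of 0.01 gave 1502 higher and 1299 lower genes. Leaving out each of the 6 libraries in turn gave 1822 to 2126 higher and 1479 to 1917 lower genes. With a pseudocount of 0.1, 247 genes rose and 277 fell by at least 1 on the log2 scale, and with a filter at 10 FPKM in 3 libraries 51 rose that far. Median-ratio scaling gave 2113 higher and 2160 lower genes, 49.5% higher against 54.9% in the reported fit. The log2 change of Tnnt2, which did not pass the test, was -0.13 under quantile normalization. Median log2 changes of gene lists with a pseudocount of 0.1 were -0.36 for innate receptors and -0.54 for complement. With no filter they were -0.21 for RNA sensing and -0.20 for matrix proteases. The filter at 10 FPKM tests fewer genes, and it gave -0.34 for the Lgl family and Scribble module, 0.0011 for SNARE and exocyst, -0.16 for RNA sensing, -1.02 for complement, -0.20 for matrix proteases, 0.13 for mitochondrial transcription regulators, 0.0084 for mitochondrial dynamics, 0.38 for branched-chain amino acid breakdown, 0.086 for lysosome and autophagy and 0.24 for steroid, retinoid and thyroid hormone genes. Median-ratio scaling gave -0.054 for SNARE and exocyst, 0.023 for lysosome and autophagy and -0.30 for tRNA synthetases. The cause of these shifts was not tested. With single libraries left out, medians ranged from -0.017 to 0.089 for the Lgl family and Scribble module, -0.029 to 0.025 for SNARE and exocyst, -0.36 to -0.26 for innate receptors, -0.32 to -0.16 for RNA sensing, -0.32 to -0.18 for NF-kB genes, -0.52 to -0.30 for complement, -0.52 to -0.38 for the immunoproteasome, -0.25 to -0.14 for prostaglandin genes, -0.14 to -0.073 for BMP and activin genes, 0.14 to 0.24 for mitochondrial transcription regulators, 0.0030 to 0.12 for mitochondrial dynamics, 0.24 to 0.32 for branched-chain amino acid breakdown and 0.034 to 0.14 for steroid, retinoid and thyroid hormone genes. Same-numbered Llgl1/2 and control libraries were not shown to be paired, since their deviations from the group means correlated at 0.115, 0.010 and 0.088. Llgl1/2 library 2 correlated best with control library 3, and the other 2 with their own number. Replicate number as a block gave 2596 higher and 2125 lower genes. The FPKM values give no read totals, so counting error could not be set apart from the spread between libraries.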

Other observations

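The genes in these paragraphs were chosen after their values had been seen, so they are given as values only. Genes of the apical junction, the belt of adhesion and tight junctions opposite the basolateral cortex where Lgl proteins act in epithelia, moved in both directions: of 27 tested, 12 were higher and 4 lower after Llgl1/2 siRNA (median 0.24). Of all tested genes, 22.1% were higher and 18.1% lower, and the share of the list that fell was not far from the latter. The list was made with these values known, so the counts support nothing. Arvcf, a catenin of the p120 family, had 16.4, 16.2 and 14.8 FPKM after Llgl1/2 siRNA, against 6.12, 5.98 and 6.28 FPKM after control siRNA (log2 change 1.23 ± 0.10, adjusted p = 1.2e-06). Plekha7, which ties cadherins to microtubules, had 9.12, 9.59 and 10.2 FPKM after Llgl1/2 siRNA, against 3.33, 3.0 and 4.24 FPKM after control siRNA (log2 change 1.24 ± 0.16, adjusted p = 5.3e-05). Its partner Camsap3, which caps microtubule minus ends, had 1.19, 1.23 and 1.1 FPKM after Llgl1/2 siRNA, against 0.18, 0.13 and 0.26 FPKM after control siRNA (log2 change 0.87 ± 0.14, adjusted p = 3.5e-04). These 3 genes act at the same junction, and the groups did not overlap in any of them. Lsr, a protein of tricellular junctions, had 26.5, 27.1 and 25.8 FPKM after Llgl1/2 siRNA, against 11.4, 11.1 and 13.9 FPKM after control siRNA (log2 change 1.07 ± 0.10, adjusted p = 2.5e-06). Crb3, the apical polarity protein Crumbs, had 3.91, 2.96 and 2.72 FPKM after Llgl1/2 siRNA, against 0.98, 0.89 and 1.18 FPKM after control siRNA (log2 change 1.05 ± 0.17, adjusted p = 2.9e-04), and its partner Patj rose as well (log2 change 0.70 ± 0.13, adjusted p = 8.2e-04). By contrast, Jup, plakoglobin of desmosomes, had 67.6, 71.1 and 77.6 FPKM after Llgl1/2 siRNA, against 102, 103 and 120.2 FPKM after control siRNA (log2 change -0.58 ± 0.10, adjusted p = 3.7e-04), and Ocln, occludin, fell too (log2 change -0.50 ± 0.14, adjusted p = 0.013). Ctnnb1, beta-catenin, did not pass the test (log2 change -0.17 ± 0.07, adjusted p = 0.069), but it did with median-ratio scaling (adjusted p = 0.028) and with only the 6 libraries compared (adjusted p = 0.029).

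In the direct comparison, which uses the same Llgl1/2 libraries, 19 of the 27 junction genes were higher after Llgl1/2 siRNA than after Yap siRNA and 1 was lower, beside 28.0% and 19.0% of all tested genes. Arvcf had 5.96, 6.69 and 7.49 FPKM after Yap siRNA (log2 difference 1.12 ± 0.10, adjusted p = 1.5e-06), and Pard6b, an apical polarity adaptor, had 10.2, 8.21 and 8.37 FPKM after Llgl1/2 siRNA and 2.39, 1.99 and 2.15 FPKM after Yap siRNA (log2 difference 1.64 ± 0.12, adjusted p = 2.8e-07). Of 9 tested epithelial genes, 4 rose and none fell relative to control siRNA, beside 22.1% of all tested genes higher. Epn3, an endocytic adaptor, had 24.1, 26.8 and 29.4 FPKM after Llgl1/2 siRNA, against 10.6, 9.46 and 11.2 FPKM after control siRNA (log2 change 1.28 ± 0.12, adjusted p = 3.9e-06). It rose together with Krt8 and Krt18, whose values are given with the epicardial and mesothelial markers. The part of epithelial or mesothelial cells in these values was not tested.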
